A study of Mus musculus with 16 samples.

Results

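Macrophage scavenger and identity receptors are surface proteins by which tissue macrophages bind particles, lipoproteins, dying cells and growth factors, and by which these cells are recognised. The symbols Marco, Vsig4, Cd163, Msr1, Mrc1, Timd4, Csf1r, Adgre1, Cd68 and Itgam were listed, 10 in all, and a probe belonged to a gene when the accession printed beside it in the scanner files mapped to that symbol. A probe was matched for 9 of the 10 genes, and these 9 were among the 26781 genes tested. No probe was matched to Cd68, which was not analysed here. The list was chosen from measured age changes of these same arrays, since the rise of Marco in males, that of Vsig4 in both sexes and that of macrophage genes in females were known. The age changes of the receptors are therefore given as a description, with no p-value, and support nothing.

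The RNA came from the bladder body of C57BL/6 mice, and each of 16 bladders had a 1-colour Agilent array of its own. Mature mice (MAT) were 12 months old and aged mice (AGED) were 27 to 30 months old, and 4 males and 4 females of each age were measured. The labels name no transgene or drug, and the groups share strain and tissue. The study asked how the bladder changes with age in each sex. The arrays of each sex lay on a slide of their own and the MAT and AGED arrays in different slide rows, so sex and slide, and age and row, cannot be told apart.

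Scavenger receptors are a mixed family of proteins that bind modified lipoproteins, bacterial surfaces and cell debris and carry them into the macrophage. Identity receptors such as the receptor for colony stimulating factor 1 keep the cells alive and serve as labels for them. In the bladder, resident macrophages lie in the connective tissue below the urothelium and between the muscle bundles.

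Every level below is the log2 processed signal of a probe minus the 75th percentile of the log2 signals of its array, so 0 is the signal that 75% of the probes of the array stay under. Levels are compared between arrays for 1 probe and never between genes. All 9 tested probes were well above background on 16 of 16 arrays. The share of all probes well above background ran from 52.3% on AGED male replicate 1, the dimmest array, to 68.2%, with 58.6% to 61.2% on the other AGED males. Bladder markers were high on every array, with a mean log2 level of 6.65 to 7.27 for 6 smooth muscle genes and of 5.84 to 6.42 for 6 urothelial genes. In bulk tissue, more macrophages and more receptor RNA per macrophage cannot be told apart.

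Promoter windows from the RefSeq tables of build GRCm38.p6 were used for 7 of the 10 symbols. A chromosome filter on the receptor windows was not applied to the windows over all genes. A symbol without a window may have been dropped by that filter. Each holds 250 bases before and 50 after the transcription start. They were searched on both strands for GAGGAA, a core of the sites bound by PU.1, the transcription factor that sets the macrophage lineage. The letters were found in 5 of the 7 windows, those of Marco, Vsig4, Mrc1, Itgam and Cd68, and in 28.3% of 32851 windows of 300 bases over all genes. The windows of Marco (chr1:120504975-120505274, minus strand) and Vsig4 (chrX:96293389-96293688, minus strand) are shown because these are the receptors with the largest age changes. Capitals mark the matches, which begin at position -146 from the start site in Marco and at -155 and -53 in Vsig4. A match is a description of the letters and not a binding site.
Marco: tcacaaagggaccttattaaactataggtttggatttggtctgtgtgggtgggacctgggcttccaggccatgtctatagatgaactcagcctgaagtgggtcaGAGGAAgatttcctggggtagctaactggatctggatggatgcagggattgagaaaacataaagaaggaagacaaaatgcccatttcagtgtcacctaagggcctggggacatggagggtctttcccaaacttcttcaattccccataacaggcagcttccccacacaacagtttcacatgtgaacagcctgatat
Vsig4: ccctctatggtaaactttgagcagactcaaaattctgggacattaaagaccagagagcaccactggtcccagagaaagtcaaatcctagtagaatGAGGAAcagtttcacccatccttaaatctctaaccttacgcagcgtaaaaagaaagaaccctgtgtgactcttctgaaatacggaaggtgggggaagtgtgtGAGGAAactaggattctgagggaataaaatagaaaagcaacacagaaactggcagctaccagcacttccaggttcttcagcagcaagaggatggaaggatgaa

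Marco, a class A scavenger receptor with a collagen-like stalk that binds bacteria and particles, had the largest age change of the receptors, and it lay in males. Every age direction here follows the age labels deposited with the arrays. For S100a9 it opposes the study, which lists this gene as lower in aged mice of both sexes. Here the log2 change of S100a9 was 3.08 in males and 1.62 in females. Which direction is right was not tested, and the question bears on every age direction given here. On AGED male arrays the log2 level of Marco was 2.44, -1.81, -1.70 and 0.05, against -4.50, -4.87, -5.06 and -4.42 on MAT male arrays. Every AGED male array lay above every MAT male array. The means were -0.25 ± 1.99 (SD, n = 4) and -4.71 ± 0.30 (SD, n = 4), a log2 change of 4.46 (standard error 0.65) or 22-fold. AGED male replicate 1 alone held 77% of the summed linear signal of the 4 AGED males and stood 19.1-fold above the lowest of them. Without that array the change was 3.56, and over all 16 ways of leaving out 1 array it ran from 3.56 to 4.98. In females the levels were -4.09, -4.16, -4.03 and -3.64 on AGED arrays and -4.82, -4.71, -4.76 and -4.88 on MAT arrays. The AGED and MAT females did not overlap either, but the change was 0.81 (standard error 0.65), or 1.75-fold. The SD was 0.23 on AGED and 0.07 on MAT female arrays, and the standard error takes in the wider spread of the AGED males. The male change exceeded the female change by 3.65 on the log2 scale (standard error 0.92).

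**Figure D1:**
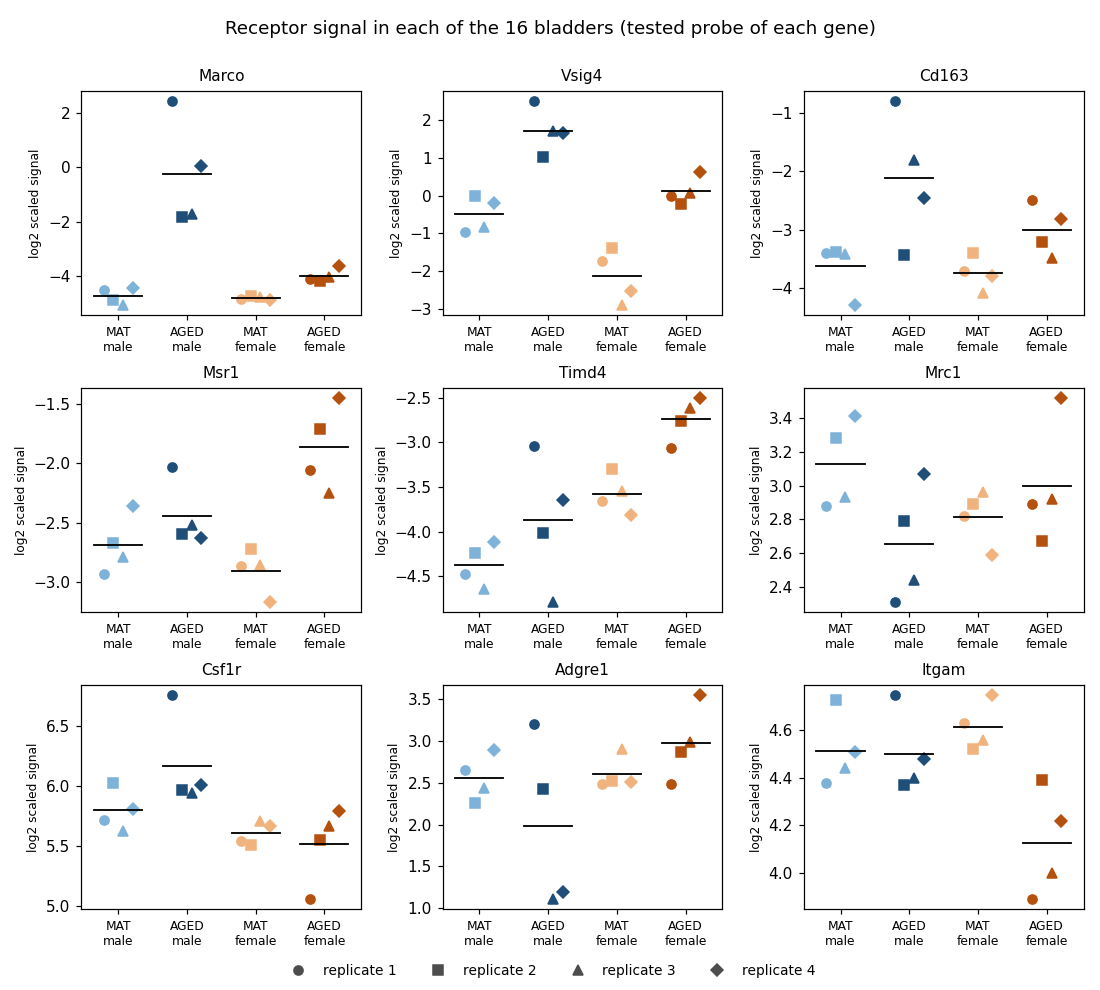
Log2 scaled signal (y axis) of the tested probe of each of the 9 receptors on every array, by group (x axis). Points are bladders with the replicate number as symbol, and lines are group means. In Marco the AGED males spread from -1.81 to 2.44 while all MAT males lie at or below -4.42.

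Vsig4, a complement receptor of resident macrophages that takes up opsonised particles, rose with age in both sexes. Its log2 level was 2.50, 1.02, 1.69 and 1.64 on AGED male arrays and -0.95, 0.00, -0.82 and -0.19 on MAT male arrays. On AGED female arrays it was -0.02, -0.22, 0.08 and 0.61, and on MAT female arrays -1.73, -1.38, -2.89 and -2.53. In each sex the 4 AGED bladders all exceeded the 4 MAT bladders. The age change was 2.20 in males (standard error 0.36), or 4.6-fold, and 2.24 in females (standard error 0.36), or 4.74-fold, and the male change minus the female change was -0.04 (standard error 0.51). No single array carried the rise in males, where AGED male replicate 1 held 40.3% of the AGED male signal and the change without it was 1.94. In the order of the group means, AGED males came first, then AGED females, MAT males and MAT females, and AGED females and MAT males overlapped.

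Cd163, which takes up haemoglobin bound to haptoglobin, had a male change that leaned on AGED male replicate 1. Its level was -0.79, -3.43, -1.81 and -2.45 on AGED male arrays and -3.40, -3.38, -3.41 and -4.29 on MAT male arrays. AGED male replicate 2 lay among the MAT males, and replicate 1 held 50.7% of the AGED male signal. The change was 1.50 (standard error 0.42), or 2.82-fold, with 1.05 without AGED male replicate 1 and 1.93 without replicate 2. In females Cd163 ran from -3.48 to -2.49 on AGED and from -4.08 to -3.40 on MAT arrays, with a change of 0.74 (standard error 0.42).

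Msr1, the class A receptor of modified lipoproteins, rose in females, where Marco was not called. Its level was -2.06, -1.71, -2.25 and -1.45 on AGED female arrays and -2.87, -2.72, -2.86 and -3.17 on MAT female arrays, with no overlap. The change in females was 1.04 (standard error 0.19), or 2.05-fold, and ran from 0.90 without AGED female replicate 4 to 1.17 without AGED female replicate 3. In males the level was -2.03, -2.60, -2.52 and -2.63 on AGED arrays and -2.93, -2.67, -2.79 and -2.36 on MAT arrays. The male groups overlapped, with a change of 0.24 (standard error 0.19). A second probe of Msr1 changed by 1.19 in females and by -0.47 in males, where 2 of the 4 AGED arrays had it well above background.

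Timd4, which binds phosphatidylserine on dying cells and marks long-lived resident macrophages, was above its MAT level in females but was not called. Its level was -3.06, -2.76, -2.62 and -2.50 on AGED female arrays and -3.66, -3.30, -3.54 and -3.81 on MAT female arrays. The female groups did not overlap, with a change of 0.84 (standard error 0.28). In males it was -3.04, -4.02, -4.79 and -3.65 on AGED arrays and -4.48, -4.24, -4.64 and -4.12 on MAT arrays, with a change of 0.49 (standard error 0.28) and of 0.21 without AGED male replicate 1. Mrc1, the mannose receptor of tissue macrophages, was not called in either sex. It ran from 2.31 to 3.07 on AGED and from 2.88 to 3.41 on MAT male arrays, with a change of -0.47 (standard error 0.20), and its change in females was 0.18 (standard error 0.20). AGED male replicate 1, the highest AGED male in the other 8 genes, was the lowest in Mrc1.

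None of the identity receptors Csf1r, Adgre1 and Itgam was called with age. Csf1r, the receptor of colony stimulating factor 1 and interleukin 34, was at 6.76, 5.97, 5.94 and 6.01 on AGED male arrays, where replicate 1 stood above the other three, and ran from 5.63 to 6.03 on MAT male arrays. Its change was 0.38 in males (standard error 0.19), 0.18 without AGED male replicate 1, and -0.08 in females (standard error 0.19). Both other probes of Csf1r gave 0.27 and 0.80 in males and 0.16 and 0.04 in females. Their group means were -0.04 to 0.42 and -0.82 to 0.39, against 5.52 to 6.17 for the tested probe, the brightest. Which probe reports the gene was not tested.

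Adgre1, which encodes the F4/80 antigen, was at 3.20, 2.42, 1.11 and 1.19 on AGED male arrays and ran from 2.26 to 2.89 on MAT male arrays. The AGED males thus lay on both sides of the MAT males, and the change was -0.58 (standard error 0.38), or -0.99 without AGED male replicate 1 and -0.29 without replicate 3. In females it was 0.37 (standard error 0.38). The other probe of Adgre1 changed by 0.04 in males and 0.34 in females.

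Itgam, the alpha chain of complement receptor 3, which neutrophils and monocytes also carry, changed by -0.01 in males (standard error 0.13). In females it was at 3.89, 4.39, 4.00 and 4.22 on AGED arrays and at 4.63, 4.52, 4.56 and 4.75 on MAT arrays. Every AGED female array lay below every MAT female array, and the change was -0.49 (standard error 0.13). Its 2 other probes changed by 0.51 and 0.63 in females, opposite to the tested probe, so the direction for Itgam depends on the probe. The tested probe, taken as the brightest, had group means of 4.13 to 4.62. Group means of the other probes were far lower, -5.06 to -4.25 and -2.75 to -2.12. Which probe reports the gene was not tested.

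**Figure D2:**
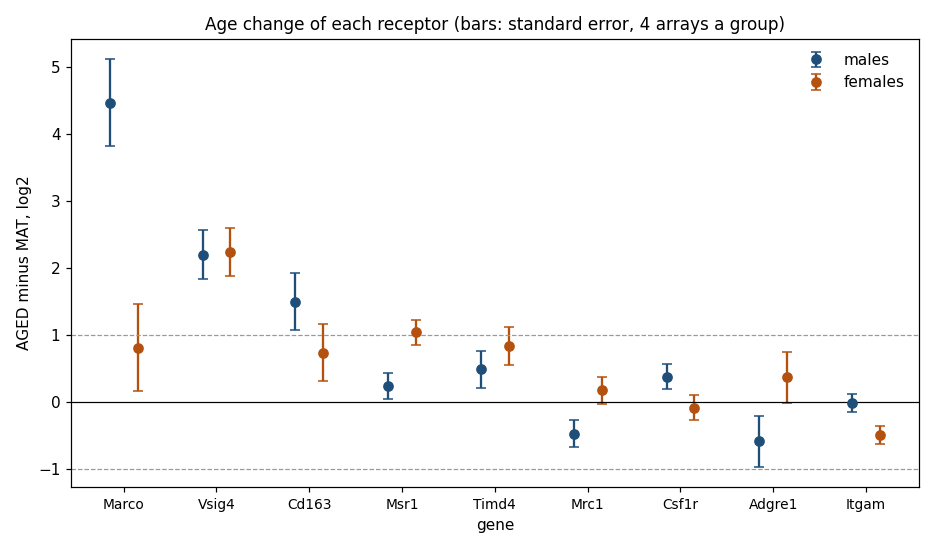
AGED minus MAT difference in log2 scaled signal (y axis) for each receptor (x axis) in males and females. Bars are standard errors from the limma model, and dashed lines mark a 2-fold change. Marco stands at 4.46 in males and 0.81 in females, and Vsig4 at 2.20 and 2.24.

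A gene was called at a limma adjusted p under 0.05, over all 26781 genes, and at least a 2-fold change. In males 2 of the 9 receptors were called higher, Marco and Vsig4, against 0.276% of all genes, and 0 were called lower, against 0.575%. For the same 2 receptors every AGED male array lay above every MAT male array, against 3.91% of all genes. In females 2 were called higher, Vsig4 and Msr1, against 0.179% of all genes, and 0 lower, against 0.0112%. Every AGED female array lay above every MAT female array for 4 receptors, Marco, Vsig4, Msr1 and Timd4, against 5.04% of all genes. Since these contrasts chose the list, nothing is read from the shares. The median change of the 9 receptors was 0.38 in males, with 6 above 0, and 0.74 in females, with 7 above 0, and over all genes it was 0.00 and -0.01. Over all genes, 74 were called higher and 154 lower in males, and with normexp background correction 64 and 693.

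The calls differed in how far they rested on single arrays. Marco and Vsig4 in males were called in 16 of 16 fits that left out 1 array. Cd163 in males was called in 1 of 16, the fit without AGED male replicate 2. Vsig4 in females was called in 10 of 16 and lost the call without AGED female replicate 1, 2 or 4 or MAT female replicate 1, 3 or 4. Msr1 in females was called in 4 of 16, those without AGED male replicate 1 or 3, AGED female replicate 3 or MAT male replicate 4. The arrays of the other sex enter these fits through the shared spread.

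**Figure D3:**
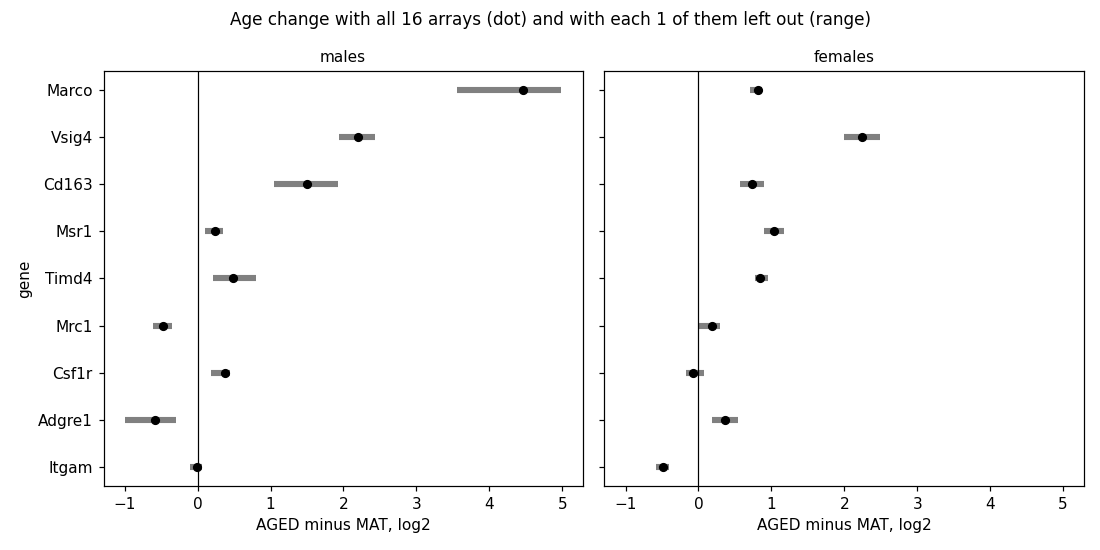
Age change of each receptor (y axis) as AGED minus MAT in log2 units (x axis), in males (left) and females (right). Dots are the values with all 16 arrays, and grey bars span the values with each 1 of the arrays left out. The bar of Marco in males runs from 3.56 to 4.98, and that of Vsig4 in females from 1.99 to 2.49.

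In scaled level, AGED male replicate 1 was the highest of the 4 AGED males in 8 of 9 receptors. AGED female replicate 4 was the highest of the AGED females in 7 of 9. These arrays had the lowest 75th percentiles of their groups, 9.18 and 9.83, so scaling raised them most. Before scaling, AGED male replicate 1 was the highest AGED male only in Marco, Vsig4 and Cd163. It was then the lowest in Mrc1, Msr1 (141.8 against 154.6 to 169) and Itgam (15620 against 20290 to 21370). Before scaling, AGED female replicate 4 was the highest AGED female in none of the receptors. Some other cell marker sums were also high on AGED male replicate 1. The summed linear level of 16 general macrophage genes was 260 on it, 106 to 123 on the other AGED males and 89.3 to 110 on MAT males. The sum of 7 T cell markers was 23.2 on it, 4.49 to 6.79 on the other AGED males and 4.18 to 5.72 on MAT males. The sum of 6 B and plasma cell markers was 14.4 against 1.65 to 11.4 on the other AGED males, and that of 6 monocyte markers 53.6 against 29.3 to 36.2. The array thus stood above the other AGED males in macrophage, T cell and monocyte sums. The sum of 6 dendritic cell markers was 66.4 against 44.3 to 47.2, and that of 9 macrophage lectins was 56.4 against 17.2 to 22.9. In mean log2 level the array was not the highest AGED male for dendritic cells (-0.89 against -1.85 to -0.85). The same held for B and plasma cells (-0.86 against -3.17 to -0.79). For 9 neutrophil markers the sum was the lowest of the AGED males, 94.4 against 97 to 118, while the mean log2 level was the highest, -0.50 against -1.47 to -0.68. The part of these markers in the receptor changes was not tested. On AGED female arrays the general macrophage sum ran from 106 to 206, with the highest on replicate 4, and on MAT female arrays from 83.7 to 110.

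**Figure D4:**
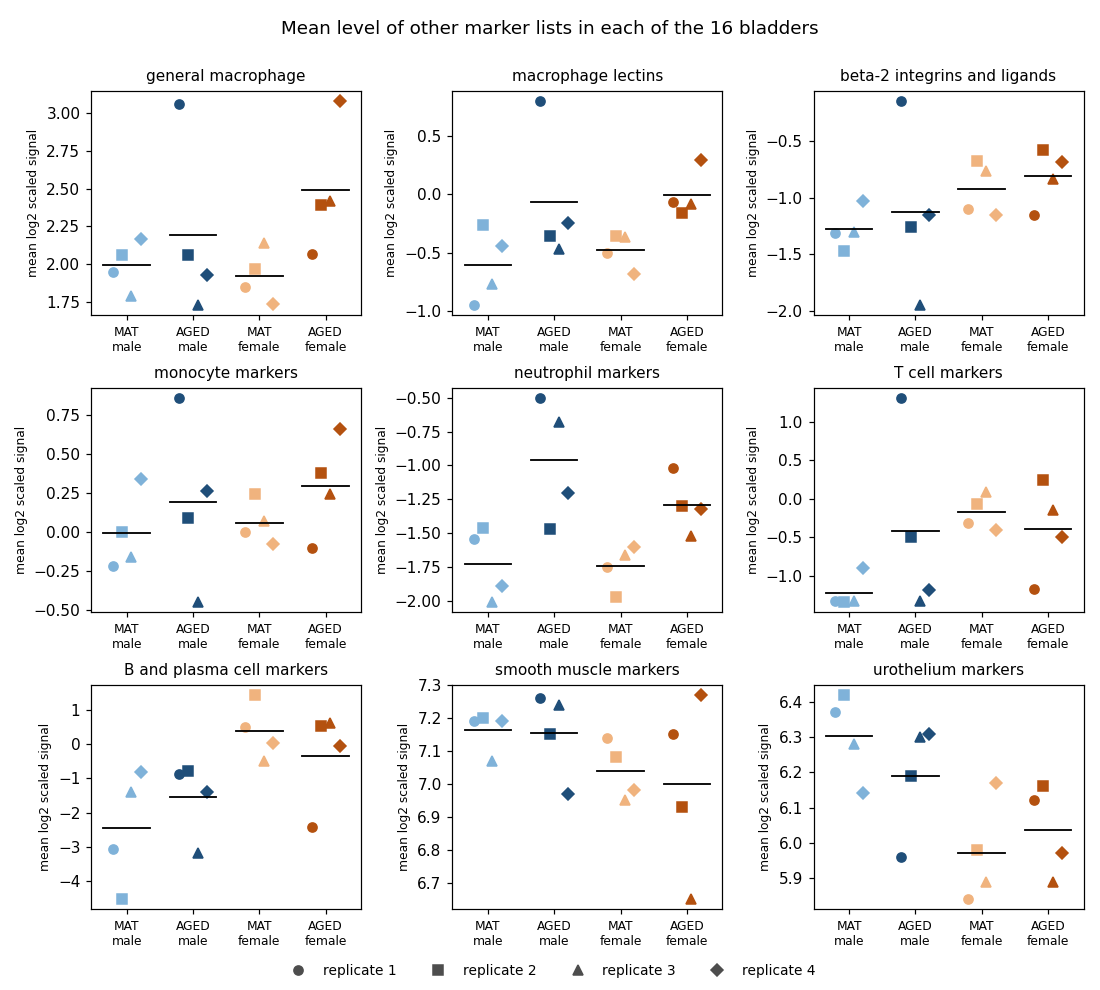
Mean log2 scaled signal (y axis) of the tested genes of 9 other marker lists on every array, by group (x axis), with the replicate number as symbol and the group mean as line. AGED male replicate 1 is the highest AGED male in the general macrophage and T cell lists. In the smooth muscle list it lies at 7.26, above the other males and below AGED female replicate 4 (7.27). In the urothelium list it lies at 5.96, below the other males (6.14 to 6.42) and within the range of the females.

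Males and females were compared within each age with the same limma model. These contrasts share arrays with the age changes that chose the list, and sex and slide cannot be told apart. In MAT mice 0 of 9 receptors were called, against 0.101% of all genes called higher in males and 0.0635% lower, and 1, Vsig4, passed with the unadjusted p of limma or of the methods' t-test. Vsig4 was higher on every MAT male than on every MAT female array, by 1.64 (95% interval 0.88 to 2.41, limma adjusted p = 0.0685), and was called when AGED male replicate 1 was left out (limma adjusted p = 0.0426). Over all genes, every MAT male array lay above every MAT female array for 3738 of 26781. Timd4 was lower on every MAT male than on every MAT female array, with a difference of -0.79 (95% interval -1.38 to -0.20, limma adjusted p = 0.22). For Marco the MAT difference was 0.08 with a 95% interval of -1.31 to 1.47, which passes 2-fold either way. That interval rests on the spread shared by all groups, with an SD of 1.99 in AGED males. The MAT arrays alone had an SD of 0.30 in males and 0.07 in females.

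In AGED mice 3 receptors were called, 2 higher in males, against 1.24% of all genes, and 1 lower, against 1.88%. In AGED males Marco exceeded its level in females 13.2-fold (log2 difference 3.73, 95% interval 2.33 to 5.12, limma adjusted p = 0.00462), and every male array lay above every female array. Vsig4 was 3.03-fold higher, also with no overlap (log2 difference 1.60, 95% interval 0.84 to 2.36, limma adjusted p = 0.0139). Over all genes, every AGED male array lay above every AGED female array for 2393 of 26781. Timd4 was lower in AGED males by a log2 difference of -1.14 (95% interval -1.73 to -0.55, limma adjusted p = 0.0207), with AGED male replicate 1 within the range of the females. Its call was lost without AGED male replicate 3, where the difference was -0.84, and without AGED female replicate 3 or 4. With normexp background correction the Timd4 difference was -0.39 and was not called (limma adjusted p = 0.103). Csf1r was higher on every AGED male array by 0.65, under the 2-fold limit (limma adjusted p = 0.0457). Its other probes had means of 0.42 in AGED males against 0.12 in AGED females, and of 0.39 against -0.78. The difference for Adgre1 had a 95% interval of -1.80 to -0.19 (limma adjusted p = 0.108), and it was -1.40 and called without AGED male replicate 1 (limma adjusted p = 0.00928). With means of 1.98 in AGED males and 2.98 in AGED females, the tested probe differed more than the other, with 0.58 and 1.02. Over all genes 331 were called higher and 503 lower in males at this age, with 242 and 590 under quantile normalization and 204 and 959 with normexp, and in MAT mice 27 and 17, with 13 and 4 under normexp.

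The deviations of the receptors from their group means were compared over the 16 arrays, which takes out the age and sex differences. Of the 36 pairs 32 had a positive Pearson r, with a median of 0.48 and a range of -0.42 to 0.82, and the median r of a receptor with all genes centred on -0.03. The closest pairs were Marco with Timd4 (0.82), Csf1r with Itgam (0.74), Timd4 with Csf1r (0.72) and Csf1r with Adgre1 (0.71). Mrc1 had a median r of -0.00 with the others. Each receptor entered by its tested probe alone. The arrays share 1 scaling and their points share AGED male replicate 1. Without it the median fell to 0.28, with 27 of 36 pairs positive. Marco with Csf1r went from 0.70 to 0.18 and Marco with Adgre1 from 0.59 to -0.12, while Marco with Mrc1 went from -0.10 to 0.58 and Timd4 with Mrc1 from 0.26 to 0.76.

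**Figure D5:**
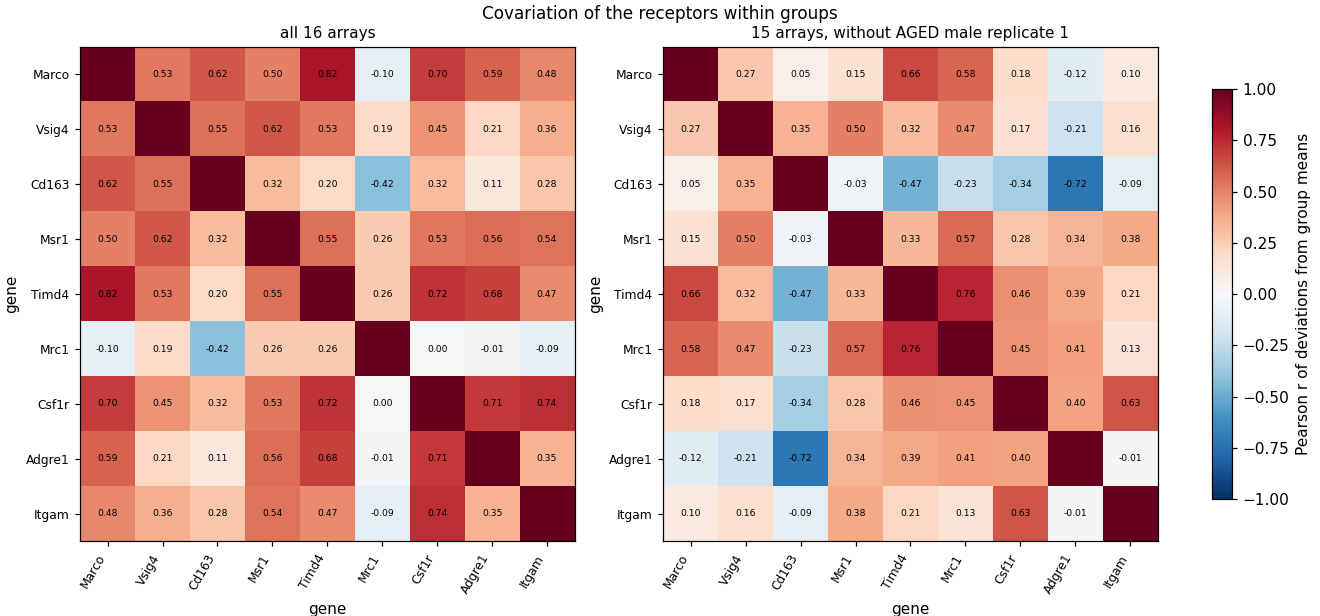
Pearson r (colour and number in each cell) between the deviations of 2 receptors from their group means, over 16 arrays (left) and over 15 arrays without AGED male replicate 1 (right); axes list the genes. The median over 36 pairs is 0.48 on the left and 0.28 on the right.

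For each receptor the 3 genes with a symbol whose deviations had the highest r were taken from all genes tested. Marco was most like Acod1, the itaconate-making enzyme of activated macrophages, with r = 0.97 over 16 arrays and 0.87 without AGED male replicate 1. Psmd11 and Ubap2l followed closely, each with r = 0.95, and with 0.73 and 0.74 without that array. The level of Acod1 was 0.86 on that array, -6.22 to -3.52 on the other AGED males and -7.13 to -6.32 on MAT males. Most of these levels were near background. On AGED male replicate 3 a Msr1 probe at -5.24 was not well above background, and Acod1 was at -6.02. On MAT male replicate 4 an Itgam probe at -5.65 was not, and Acod1 was at -6.87. Csf1r was most like Unc93b1, which carries nucleic acid sensing receptors to endosomes (r = 0.96), and then Cryba4 (0.94) and Cybb, the catalytic chain of the phagocyte oxidase (0.93). Timd4 was most like Hcls1 (0.94) and Ifi30, a thiol reductase of antigen processing (0.93). Msr1 was most like Pdia6 and Tmem167 (both 0.87) and C3ar1, the receptor of the complement fragment C3a (0.86). Mrc1 was most like Gask1a (0.94) and Ldlrad4 (0.93), and then Col3a1, a collagen of connective tissue (0.90). Adgre1 was most like Tnfsfm13 (0.96), Itgam like Erc2 (0.92), Cd163 like Ppp2r5a (0.92), and Vsig4 like Pgk1, Pilra and Pfn1 (each 0.79). Without AGED male replicate 1 the r of the 3 genes of each receptor ran from 0.73 to 0.94. These are the highest values among 15933 genes over 16 arrays, so high r is in part fixed by the search. How high r would run by chance was not tested.

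Other macrophage genes were read from 6 lists of scavenger receptors, lectins, receptors for dying cells, the CSF1 receptor axis, beta-2 integrins and general macrophage genes, with the 9 receptors left out, and 66 of 73 listed genes were tested. In males 1 was called higher, against 0.276% of all genes, and 1 lower, against 0.575%. Cd5l, a soluble scavenger receptor protein of macrophages, was at -0.48, -3.85, -2.61 and -1.20 on AGED male arrays and ran from -6.21 to -4.55 on MAT male arrays, with a change of 3.23 (standard error 0.63). Scarb1, the receptor of high density lipoprotein, was at 1.08, 1.72, 0.37 and -0.12 on AGED male arrays and at 2.04 to 2.28 on MAT male arrays, with a change of -1.37 (standard error 0.27). Both were called without AGED male replicate 1, neither was called without MAT male replicate 2 or 3, and Scarb1 was not called without MAT male replicate 1.

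In females 0 of the 66 genes were called by limma. With unadjusted p-values at a threshold of 0.05 and 2-fold, limma passed 3 and the methods' t-test 5. Of the 16 general macrophage genes 16 had a change above 0 in females, against 49.1% of all genes, with a median of 0.52 and a range of 0.11 to 1.72. In males 12 were above 0, against 50.2% of all genes, with a median of 0.30. For 4 of these genes, C1qa and C1qb of the complement C1q chains, Fcgr1, a high affinity antibody receptor, and Folr2, a folate receptor, every AGED female array lay above every MAT female array, and they are named after their values were seen. Over all genes 5.04% lay so. Ctss and Fcer1g of the same list changed by 0.62 and 0.74 in males and by 0.57 and 0.64 in females, with no call. In AGED mice 4 of the 66 genes were called lower in males than in females, against 1.88% of all genes, and 0 higher, against 1.24%. They were Havcr2, a phosphatidylserine receptor (-1.51, limma adjusted p = 0.0149), Itgax, an integrin of dendritic cells and macrophages (-1.22, limma adjusted p = 0.0362), Aif1, a macrophage actin binding protein (-1.28, limma adjusted p = 0.0471), and Scarb1 (-1.18, limma adjusted p = 0.0171).

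Among markers of other cells in the tissue, 2 of 9 neutrophil genes, S100a8 (2.43, standard error 0.49) and S100a9 (3.08, standard error 0.56), were called higher in AGED males, and 0 in females, where 4 passed with the unadjusted p of limma. The shares of all genes called higher were 0.276% in males and 0.179% in females. In males 4 of the 9 neutrophil genes had a change above 0, with a median of -0.01. In females 6 of the 9 did, with a median of 0.43. Between AGED males and females, Mpo of the neutrophil list (-1.58, limma adjusted p = 0.00819) and Clec9a of the dendritic cell list (-1.37, limma adjusted p = 0.0284) were called lower in males. In the lists for monocytes, dendritic cells, peritoneal macrophages, mast cells, lymphatic endothelium, T cells, B and plasma cells, red blood cells, smooth muscle and urothelium, 0 of 58 tested genes were called with age by limma in either sex, and 6 in males and 2 in females had an unadjusted limma p under 0.05 and a 2-fold change. Ltf and Ngp of the neutrophil list and Alox15 of the peritoneal list were well above background on fewer than 4 arrays and were not tested. Their medians in males lay between -0.53 for dendritic cells and 0.79 for B and plasma cells. In females they lay between -0.88 for B and plasma cells and 0.23 for lymphatic endothelium. The part of these markers in the receptor changes was not tested.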

How the data were processed

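The authors dissected the bladder body, labelled total RNA with Cy3 and scanned 1-colour Agilent arrays with Feature Extraction (9.1 per the labels, 10.7.3.1 per the file headers). The authors deposited spot intensities that the software had background-subtracted but not normalized between arrays, with spot flags, and a table of log2 values, which the authors centred per probe. Control spots and outlier-flagged values (399) were left out and log2 processed signals were scaled by the 75th percentile of each array. Probes well above background on at least 4 of 16 arrays were kept (36972 of 55681), named by accession through RefSeq, and the brightest kept probe on average stood for each of 26781 genes. The test was limma (version 3.58.1, R 4.3.3) on the group means of all 16 arrays, with Benjamini-Hochberg adjustment, tested on simulated data.

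The receptors and lists were chosen with earlier results of these data known. All receptors and the called genes of the other lists are named, with further names drawn from the 2 genes of the highest mean signal in a list and the 3 genes most like a receptor. Alternatives covered scaling, background correction (normexp, offset 50), filters, probe choice, tests, array weights, a replicate block and each array left out. The number of arrays limits the precision.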

Additional observations from a re-analysis of the deposited data

Results flagged for a closer look

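In 3 of 36 groups of 4 arrays (9 receptors in 4 groups) a single array stood apart from the other three by Dixon's criterion at the 95% level, which is 8.33% where chance marks about 1 in 20. The values of 1 array are not independent of each other.

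Csf1r on AGED male replicate 1 was at 6.76 against 5.94 to 6.01 on the other AGED males, a gap of 0.911 of the range. Before scaling, the signal of Csf1r was 62800 on that array and 59010 to 64630 on the other AGED males. Cd163 on MAT male replicate 4 was at -4.29 against -3.41 to -3.38 on the other MAT males, a gap of 0.966. Adgre1 on MAT female replicate 3 was at 2.90 against 2.49 to 2.52 on the other MAT females, a gap of 0.918. Marco was not marked in AGED males, where replicate 1 at 2.44 was followed by replicate 4 at 0.05.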

How the results depend on the processing

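The calls of the receptors moved with the test and with single arrays. With the methods' t-test after Benjamini-Hochberg adjustment 0 receptors were called in males, 0 in females and 0 between the sexes in AGED mice, and 0 other macrophage genes in males. Fitting only the 2 groups of a comparison gave 0 in males, 1 in females and 0 between AGED males and females, with 0 other macrophage genes in males and 1 in females. In females 1 receptor, Vsig4, was called with normexp, with no filter on dim probes and with the mean of the probes of a gene, and in males 1 other macrophage gene with that mean. Between MAT males and females 1 receptor, Vsig4, was called with array weights and with the unadjusted t-test. Between AGED males and females array weights called 2, without Vsig4 (1.35), and normexp called 4, with Adgre1 (-1.52) and Mrc1 (-1.47) added and Timd4 (-0.39) lost. Of other macrophage genes, array weights called 1 in males and 3 in females, and the unadjusted t-test 5 in females. The median covariation was 0.34 with the array median as scale and 0.22 with normexp. With 1 array left out, receptors called ran from 0 to 2 in females and 0 to 1 between MAT sexes, other macrophage genes from 0 to 4 in males and 0 to 2 in females, and covariation from 0.28 to 0.53.

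Normexp moved the median of all genes from 0.00 to 0.12 in males and from 0.09 to 0.25 between AGED sexes. In males it gave 3.28 for Marco, 0.29 for Cd163 and -1.31 for Mrc1, which was then called. Array weights gave 0.84 for Cd163 in males. Differences near 0 between MAT sexes changed sign, with 0.15 for Itgam by the mean of its probes, -0.15 to 0.06 for Adgre1 and -0.02 to 0.20 for Marco with 1 array left out. Of 522 age changes recomputed for single receptors 514 moved by less than the spread between arrays. That count is no measure of robustness, because much of it was fixed in advance. A fit with 1 array left out cannot move a change by more than that spread. Settings that alter only the test or the filter on dim probes leave the change of a tested probe as it is. Of 522 sex differences 504 kept their direction and side of the threshold, 6 gained a call, 8 lost one and 4 changed sign. The causes were not tested.

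The replicate number as a block called 2 receptors in males and 0 in females. The numbers are shared only as labels, since same-numbered arrays of the 2 ages correlated between -0.15 and 0.07. The slide as a block could not be fitted, since each slide holds 1 sex.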

Other observations

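The 6 B and plasma cell markers had a median difference of -3.22 between MAT males and MAT females, with 6 of 6 lower in males, and -1.10 between AGED males and females, with 6 of 6 lower. The 7 T cell markers had a median difference of -1.19 between MAT males and females, with 7 of 7 lower in males, and 0.06 between AGED males and females, with 4 of 7 higher in males. No gene of either list was called by limma in these comparisons, and 8 genes of all 10 cell lists other than neutrophils were lower in MAT males at an unadjusted limma p under 0.05 and 2-fold.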
